A study of Mus musculus with 6 samples.

Results

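Cytochrome P450 family 2 (Cyp2) was described in bulk mouse liver by messenger RNA sequencing. Members were the rows of the deposited count table whose name is Cyp2, a single subfamily letter and a number, with no pseudogene suffix. There were 48 such genes among 35977 rows, in 13 subfamilies, and 34 of them had enough counts to be tested. The libraries fall into 2 groups of liver. The Cre-miR122 group (3 libraries, replicates 1, 2 and 4) came from mice given an adeno-associated virus, AAV9, with Cre recombinase under the promoter of Tnnt2, the gene of cardiac troponin T, in a version that carries target sites (TS) for miR122, a microRNA abundant in hepatocytes. The Cre group (3 libraries, replicates 10, 11 and 12) came from mice given AAV9 with Tnnt2-Cre and no such sites. The comparison asks how the vector with miR122 sites affects the liver, and Tnnt2 is a heart muscle promoter, so liver is not its intended site. All 6 livers thus received a Cre vector, and no liver without virus is compared here. The labels give no strain, genotype, sex, age, dose or time, and do not say whether each library is 1 animal, so p-values measure only the spread between these samples. Where single livers are named here, libraries are meant.

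Cyp2 enzymes are heme proteins of the endoplasmic reticulum that insert an oxygen atom into drugs, toxins, steroids, fatty acids and bile acids, with electrons supplied by the reductase Por and by cytochrome b5. In mouse liver most of the genes lie in clusters of close copies, are transcribed mainly in hepatocytes and depend on HNF4A, C/EBP factors and the xenobiotic receptors CAR and PXR. Several differ between adult males and females under growth hormone, and many are stronger near the central vein or the portal vein.

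Total counts ran from 20340994 to 20817837 per library, and no pair of libraries was alike within sampling noise. Hepatocyte markers summed to 147100, 148000 and 148000 counts scaled to library size (CPM) in the Cre-miR122 libraries, against 146100, 127400 and 151500 CPM in the Cre libraries. Most of this sum was Alb, at 109228, 113582 and 113957 CPM with Cre-miR122, against 109825, 93392 and 116981 CPM with Cre. Of the 10 hepatocyte markers, 6 lay above 0 in log2 fold change and 4 below, and 0 were called. B cell markers, all 8 of 8 below 0 in log2 fold change and 0 called, summed to 16.7 to 22.7 CPM with Cre-miR122 and 27.8 to 36.5 CPM with Cre. Neutrophil and monocyte markers, 7 of 7 below 0 and 0 called, summed to 13.65 to 15.26 CPM with Cre-miR122 and 16.89 to 21.82 CPM with Cre. Of 8 Kupffer cell markers 7 lay below 0 and 0 were called, with sums of 416 to 540.1 CPM with Cre-miR122 and 500.9 to 619.1 CPM with Cre. Other lists also lay mostly below 0, with 0 called. These were 6 of 7 endothelial cell, 6 of 8 tested T and NK cell, 5 of 7 stellate cell and 3 of 5 tested cholangiocyte markers. The part of these cells in the values below was not tested. Cre replicate 10 stood apart in sex-linked genes, with 5 counts of Xist and 1676 of Ddx3y, while the other 5 libraries had 15778 to 22413 of Xist and at most 1 of Ddx3y. Members whose direction turned when that library was left out are named with the description of single livers. The row for Cre itself had 12, 16 and 10 counts in the Cre-miR122 libraries, against 61, 50 and 37 counts in the Cre libraries. These did not overlap, and 5.45% of all genes tested were lower without overlap in CPM.

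Some members differ little in sequence, and these pairs show how far copies can differ in level. Levels are given in RPKM, counts scaled to library size and gene length, so that genes of different length can be compared. The mouse pair Cyp2a4 and Cyp2a5, a steroid hydroxylase and the coumarin hydroxylase, shared 98.4% of coding bases, and Cyp2a5 stood 6.73 to 32.0 times above Cyp2a4 in the 6 libraries. The pair Cyp2b13 and Cyp2b9, both known as female-biased in adult mouse liver, shared 92.7% of coding bases, and Cyp2b9 stood 10.5 to 17.7 times above Cyp2b13. The promoters of both pairs, from 250 bases before to 50 after the RefSeq start (build GRCm38.p6, plus strand of chromosome 7), are printed because they are nearly identical while the levels are not. Capitals mark bases that differ between the windows of a pair. Cyp2a4 lies at chr7:26306942-26307241, Cyp2a5 at chr7:26835089-26835388, Cyp2b13 at chr7:26061245-26061544 and Cyp2b9 at chr7:26173159-26173458.
Cyp2a4: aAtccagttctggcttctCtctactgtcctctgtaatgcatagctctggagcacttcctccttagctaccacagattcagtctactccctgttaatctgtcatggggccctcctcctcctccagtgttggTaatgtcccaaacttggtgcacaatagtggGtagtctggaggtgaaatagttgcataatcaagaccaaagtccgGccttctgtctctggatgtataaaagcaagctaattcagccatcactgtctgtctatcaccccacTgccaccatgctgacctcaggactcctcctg
Cyp2a5: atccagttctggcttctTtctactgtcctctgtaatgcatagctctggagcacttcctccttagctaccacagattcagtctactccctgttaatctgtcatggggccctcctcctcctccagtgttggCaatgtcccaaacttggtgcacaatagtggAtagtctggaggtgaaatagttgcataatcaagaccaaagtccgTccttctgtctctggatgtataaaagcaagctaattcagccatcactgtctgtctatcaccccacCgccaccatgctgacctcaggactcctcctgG
Cyp2b13: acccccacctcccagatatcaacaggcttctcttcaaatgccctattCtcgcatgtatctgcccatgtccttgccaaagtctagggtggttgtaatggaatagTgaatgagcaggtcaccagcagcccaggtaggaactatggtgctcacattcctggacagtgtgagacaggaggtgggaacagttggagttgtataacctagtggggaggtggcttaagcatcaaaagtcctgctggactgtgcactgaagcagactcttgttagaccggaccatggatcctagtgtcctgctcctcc
Cyp2b9: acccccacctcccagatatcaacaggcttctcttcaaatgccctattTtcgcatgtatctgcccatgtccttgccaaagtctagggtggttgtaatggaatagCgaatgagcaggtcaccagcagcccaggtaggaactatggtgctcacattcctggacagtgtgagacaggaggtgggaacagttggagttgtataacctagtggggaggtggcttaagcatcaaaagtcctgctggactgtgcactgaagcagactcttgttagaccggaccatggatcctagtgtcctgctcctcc
Compared end to end, the Cyp2a4 and Cyp2a5 windows differ by 5 substitutions and by 2 inserted or deleted bases, 1 near each end, and are 97.7% identical. These windows are offset by 1 base along their shared sequence. The capital for an inserted or deleted base near each end thus marks a window edge and need not be a difference between the genes. The Cyp2b13 and Cyp2b9 windows differ by 2 substitutions and are 99.3% identical. Sequence outside these windows was not compared, and reads that match both copies could be split by the counting.

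The promoter of Cyp2e1, the ethanol- and acetaminophen-oxidising enzyme of pericentral hepatocytes, is shown because this gene gave the highest level of the family. It lies at chr7:140763569-140763868, plus strand, and capitals mark TATAAA.
Cyp2e1: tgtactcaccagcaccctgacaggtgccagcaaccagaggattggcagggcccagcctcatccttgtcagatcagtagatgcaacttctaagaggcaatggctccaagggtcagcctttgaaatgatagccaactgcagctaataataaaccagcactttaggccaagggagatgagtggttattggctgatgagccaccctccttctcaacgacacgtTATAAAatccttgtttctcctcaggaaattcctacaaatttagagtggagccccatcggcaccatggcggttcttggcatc
The motif TATAAA, searched on both strands, stood 31 bases before the Cyp2e1 start, and 28 and 29 bases before those of Cyp2a4 and Cyp2a5. It occurred in 21 of 42 promoter entries of 40 matched members, against 13.6% of all 32851 promoters in the table.

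The Cyp2c cluster on chromosome 19 held copies with a shared HNF4-type motif, CAAAGTCCA. On either strand this word occurred in 6 of 42 member promoter entries, all of the Cyp2c subfamily, against 0.475% of all promoters. The 60 bases around it are printed for the members that carry it, 5′ to 3′ on the gene's strand, with the motif in capitals. They lie at chr19:40187316-40187375 (Cyp2c70, minus strand), chr19:39741144-39741203 (Cyp2c68, minus), chr19:39886810-39886869 (Cyp2c69, minus), chr19:39812825-39812884 (Cyp2c40, minus), chr19:39649133-39649192 (Cyp2c67, minus) and chr19:39060865-39060924 (Cyp2c65, plus).
Cyp2c70: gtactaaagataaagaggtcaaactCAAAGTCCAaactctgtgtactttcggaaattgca
Cyp2c68: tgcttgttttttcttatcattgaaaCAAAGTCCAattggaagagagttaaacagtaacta
Cyp2c69: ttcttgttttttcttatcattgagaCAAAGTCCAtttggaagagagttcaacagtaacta
Cyp2c40: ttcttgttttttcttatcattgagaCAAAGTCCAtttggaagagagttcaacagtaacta
Cyp2c67: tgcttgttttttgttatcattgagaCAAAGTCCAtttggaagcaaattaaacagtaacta
Cyp2c65: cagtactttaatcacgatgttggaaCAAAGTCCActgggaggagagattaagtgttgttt
The Cyp2c69 and Cyp2c40 stretches are the same in all 60 bases. Mean levels over the 6 libraries were 463 RPKM for Cyp2c70, 243 for Cyp2c68, 34.7 for Cyp2c69, 24.8 for Cyp2c40, 7.17 for Cyp2c67 and 0.0128 for Cyp2c65, so the same motif stood beside both high and near-zero levels. Other motifs were searched in the same promoters. An HNF1 site and a direct repeat (DR1) each matched 0 of 42 member entries, against 0.0396% of all promoters for each. A C/EBP site matched 13 of 42 member entries, against 10.8% of all promoters. A match is a description of letters and not a measured binding site.

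**Figure D1:**
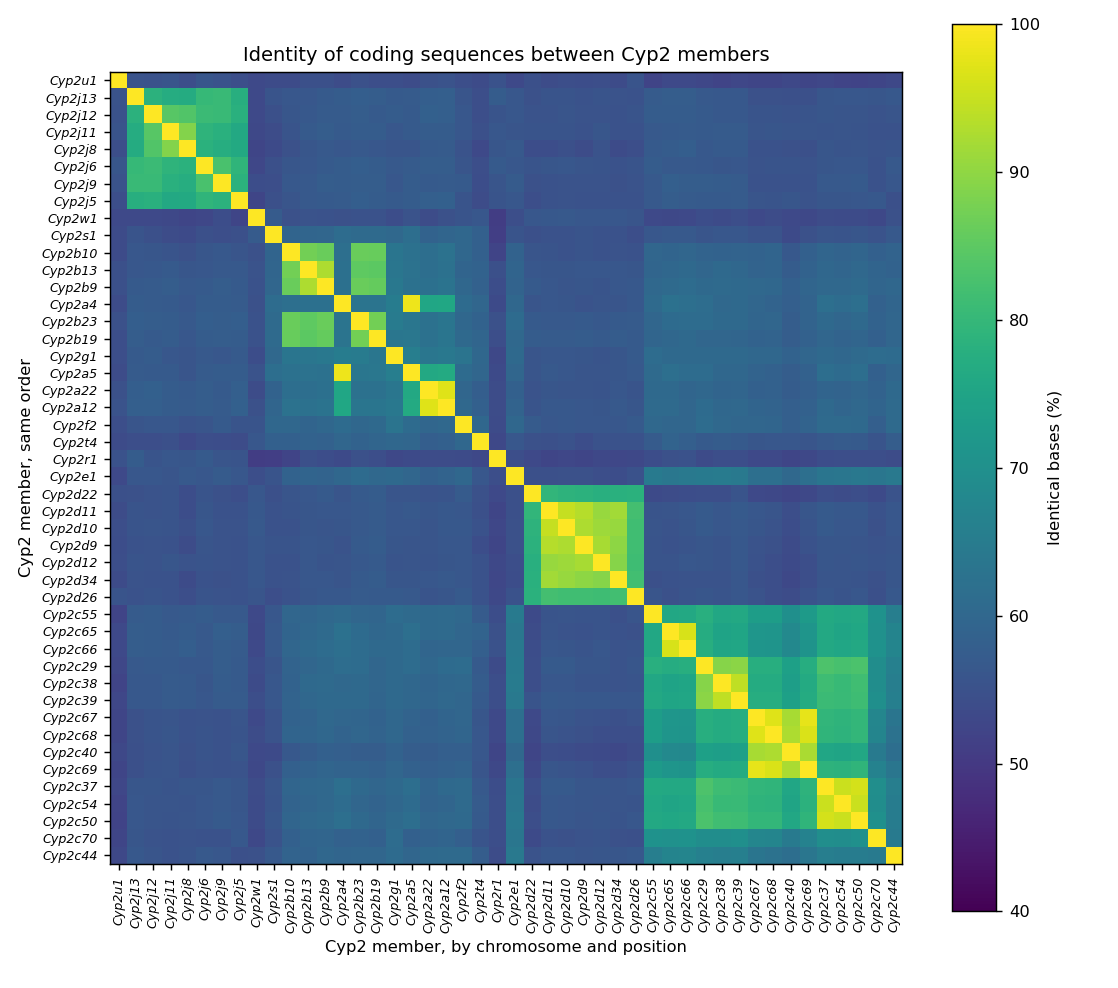
Identity of coding sequences (colour, % of bases) between 46 members with at least 1200 coding bases in GENCODE M21, ordered on both axes by chromosome and position. Bright blocks are clusters of close copies, with Cyp2a4 and Cyp2a5 at 98.4% and Cyp2c67 and Cyp2c69 at 97.7%.

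Close copies limit how firmly single genes can be read. Of 1035 pairs compared, 22 shared at least 90% of coding bases. The share of windows of 100 transcript bases that occur in another gene was 35.4% for Cyp2c69, 34.4% for Cyp2c40, 23.7% for Cyp2c67, 19.8% for Cyp2c68, 12.2% for Cyp2d11, 12.1% for Cyp2a5, 11.7% for Cyp2d10 and 11.2% for Cyp2a4. It was 9.29% for Cyp2b13, 7.91% for Cyp2d9, 7.59% for Cyp2c54, 5.35% for Cyp2c50 and 4.7% for Cyp2c37. It was 1.16% for Cyp2e1 and 0% for Cyp2c70, Cyp2f2, Cyp2j5, Cyp2b10 and Cyp2c55. How the counting handled reads with several matches is not stated in the labels. Values of genes that share windows are thus uncertain, those of the first 8 genes most.

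The summed level of the family differed between the vectors by less than the spread between libraries. Cyp2 genes took 1.157%, 1.195% and 1.125% of all counts in the Cre-miR122 libraries, against 0.9821%, 1.259% and 1.304% in the Cre libraries (replicates in the order given above, here and throughout). The means were 1.16% ± 0.0350 with Cre-miR122 and 1.18% ± 0.174 with Cre (SD, n = 3 each). The Cre-miR122 values all lay inside the range of the Cre values. The log2 ratio of the summed CPM was -0.0072, and -0.116 without Cre replicate 10, whose Cyp2 share was the lowest of the 6. In bulk liver, fewer hepatocytes and less RNA per hepatocyte cannot be told apart.

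No member was called. With the edgeR quasi-likelihood test and Benjamini-Hochberg adjustment over 14374 genes, 0 of 34 tested members passed an adjusted p of 0.05 in either direction, against 0% of all genes tested. DESeq2 and limma-voom also called 0 members. At an unadjusted p under 0.05, edgeR gave 0 members higher, beside 2.76% of all genes, and 0 lower, beside 2.65%. DESeq2 gave 1 of 34 members at that level in either direction, Cyp2a4, beside 3.62% of all genes, and limma-voom gave 0, beside 5.54%. Among the 34 tested members, the groups did not overlap for 0 upward, beside 5.69% of all genes, and for 0 downward, beside 5.45%. Cyp2b19, not tested at 0 to 2 counts a library, was lower without overlap in CPM.

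Fold changes of members were small. The log2 fold change (Cre-miR122 minus Cre) was above 0 for 11 members and below 0 for 23, with a median of -0.042, beside -0.0029 over all genes tested. The median moved to -0.097 without Cre replicate 10 and to 0.047 without Cre replicate 12, so its direction rests on Cre replicate 12. The median size was 0.077 in either direction, beside 0.11 for all genes. For 31 of 34 members the 95% interval of the fold excluded a change of 2 times or more in both directions, and the exceptions were Cyp2a4, Cyp2g1 and Cyp2d11.

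**Figure D2:**
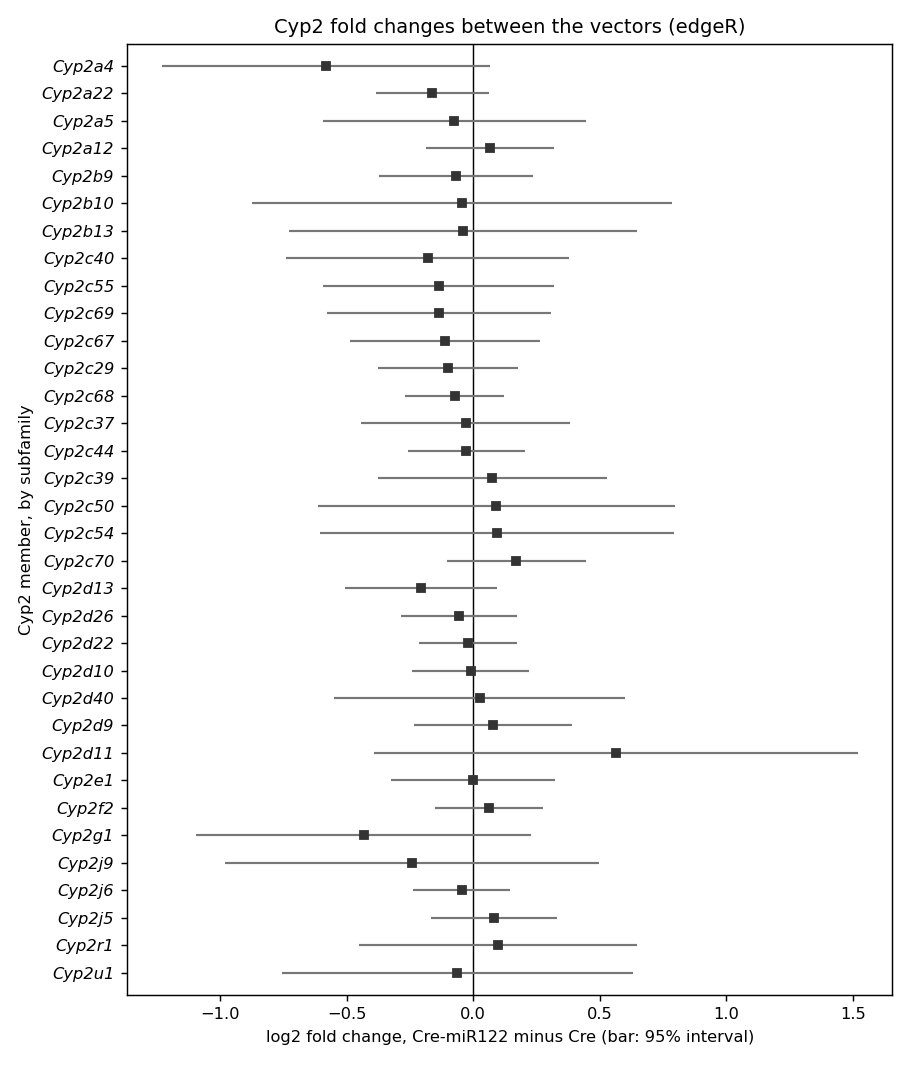
Log2 fold change of each of the 34 tested members, Cre-miR122 minus Cre (horizontal axis), by subfamily (vertical axis), with squares for the edgeR estimate and bars for its 95% interval. Every interval includes 0, and Cyp2a4 at -0.58 and Cyp2d11 at 0.56 lie farthest out.

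Cyp2e1 alone gave 45.7%, 46.7% and 46.6% of the Cyp2 counts in the Cre-miR122 libraries, against 43.4%, 46.6% and 47.6% in the Cre libraries. Its level was 3093, 3201 and 3031 RPKM with Cre-miR122, against 2470, 3198 and 3661 RPKM with Cre. The Cre-miR122 livers all lay within the range of the Cre livers, whose lowest was replicate 10 and highest replicate 12. The fold was 1.00 (95% interval 0.798 to 1.25, edgeR adjusted p = 0.999). Cyp2f2, the periportal counterpart that oxidises naphthalene in mouse lung, stood at 62.1, 55.5 and 58.0 RPKM with Cre-miR122, against 52.4, 53.0 and 62.8 RPKM with Cre. Its groups overlapped too, with a fold of 1.04 (0.901 to 1.21, edgeR adjusted p = 0.901). Neither gene was called.

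**Figure D3:**
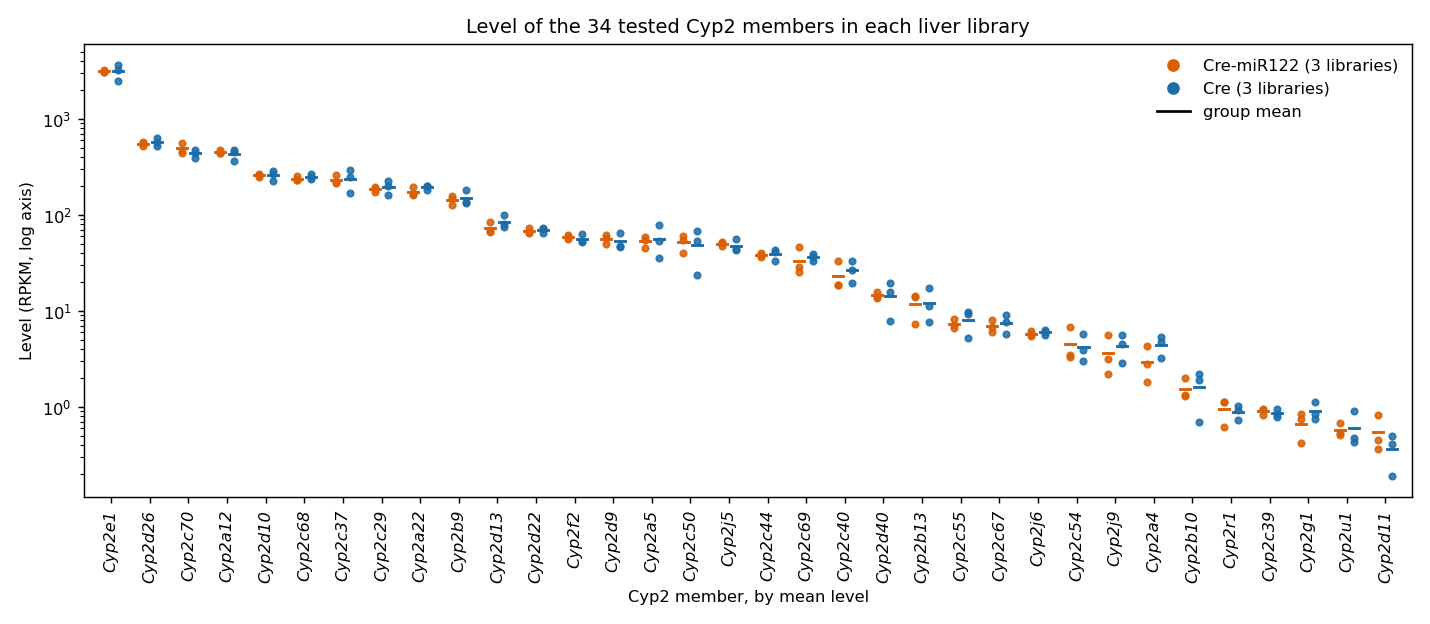
Level of each tested member (RPKM, log axis) in the 3 Cre-miR122 libraries (orange) and the 3 Cre libraries (blue), ordered by mean level on the horizontal axis, with a bar for each group mean. Levels run from Cyp2e1 at a mean of 3108 RPKM with Cre-miR122 and 3109 RPKM with Cre down to Cyp2d11 at 0.546 and 0.366 RPKM, and the groups overlap for every member.

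Members of bile acid metabolism were abundant. Cyp2c70, which makes muricholic acids in mice, stood at 464, 565 and 441 RPKM in Cre-miR122 livers, against 388, 441 and 478 RPKM in Cre livers. Only Cre-miR122 replicate 2 exceeded all Cre livers, and the log2 fold change was 0.17 (SE 0.12, edgeR adjusted p = 0.819). Cyp2a12, a steroid hydroxylase that also acts on bile acids in mice, stood at 470, 441 and 442 RPKM with Cre-miR122, against 364, 453 and 477 RPKM with Cre. The libraries of both vectors were interleaved, and the fold was 1.05 (95% interval 0.878 to 1.25). Its close copy Cyp2a22 stood at 194, 160 and 164 RPKM with Cre-miR122, against 200, 198 and 183 RPKM with Cre. Here the lowest Cre library lay below Cre-miR122 replicate 1 alone, and the log2 fold change was -0.16 (SE 0.099, edgeR adjusted p = 0.816).

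The Cyp2a4 and Cyp2a5 pair printed above held the largest negative estimate. Cyp2a4 stood at 4.28, 1.83 and 2.77 RPKM in the Cre-miR122 libraries, against 5.32, 4.73 and 3.21 RPKM in the Cre libraries. Cre-miR122 replicate 1 lay above Cre replicate 12, so the groups overlapped. The log2 fold change was -0.58 (SE 0.29), the smallest p of the family at 0.0733 and an edgeR adjusted p of 0.816, and it ranked 1213 among all genes by p. With a library left out it ran from -0.941 (without Cre-miR122 replicate 1) to -0.331 (without Cre-miR122 replicate 2). Cyp2a5 stood at 54.1, 58.6 and 45.5 RPKM with Cre-miR122, against 35.8, 77.4 and 53.4 RPKM with Cre. The Cre livers held both the lowest and the highest value, and the fold was 0.949 (95% interval 0.663 to 1.36).

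The Cyp2b genes, known as targets of CAR or of sex-dependent growth hormone signals, differed mainly between single livers. Cyp2b10, the classical phenobarbital-induced gene, stood at 2.02, 1.29 and 1.34 RPKM with Cre-miR122, against 1.93, 0.695 and 2.18 RPKM with Cre. Both ends of the range were Cre livers, replicate 11 lowest and replicate 12 highest, and the log2 fold change was -0.043 (SE 0.37). Cyp2b9 stood at 127, 147 and 156 RPKM with Cre-miR122, against 136, 132 and 182 RPKM with Cre, a fold of 0.954 (95% interval 0.772 to 1.18). Cyp2b13 stood at 7.22, 13.8 and 14.1 RPKM with Cre-miR122, against 7.65, 11.1 and 17.4 RPKM with Cre. A library of each vector was low and the rest were higher, with a log2 fold change of -0.041 (SE 0.31). Cyp2b19, known from skin, had 0 to 2 counts in each library, and Cyp2b23 had 0 in all 6.

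In the Cyp2c subfamily, 4 of 12 tested members lay above 0 and 8 below, with a median of -0.052. Cyp2c29, an epoxygenase induced through CAR, stood at 172, 195 and 184 RPKM with Cre-miR122, against 162, 202 and 226 RPKM with Cre. Its values interleaved, with a fold of 0.934 (95% interval 0.771 to 1.13). Cyp2c37 stood at 219, 260 and 213 RPKM with Cre-miR122, against 167, 244 and 296 RPKM with Cre. Cyp2c50 stood at 55.1, 59.8 and 40.3 RPKM with Cre-miR122, against 23.8, 53.7 and 68.1 RPKM with Cre. Both genes were lowest in Cre replicate 10 and highest in Cre replicate 12, and their folds were 0.980 (0.736 to 1.30) and 1.07 (0.655 to 1.74). Cyp2c54 stood at 6.83, 3.30 and 3.43 RPKM with Cre-miR122, against 3.02, 3.90 and 5.77 RPKM with Cre. Cyp2c44, an arachidonic acid epoxygenase, stood at 36.3, 39.6 and 38.0 RPKM with Cre-miR122, against 40.6, 33.0 and 42.5 RPKM with Cre. Those Cre-miR122 values lay inside the Cre range, with a fold of 0.981 (0.836 to 1.15).

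Cyp2c55, a fatty acid hydroxylase known from mouse intestine and from CAR activation in liver, stood at 6.60, 8.22 and 7.08 RPKM with Cre-miR122, against 5.27, 9.17 and 9.64 RPKM with Cre. Cre replicate 10 was below all others and the remaining Cre livers were above all Cre-miR122 livers. The log2 fold change was -0.14 (SE 0.20, edgeR adjusted p = 0.900), and without Cre replicate 10 it was -0.36 (SE 0.12, unadjusted p = 0.015, edgeR adjusted p = 0.827). The close copies Cyp2c68, Cyp2c69, Cyp2c40 and Cyp2c67 had log2 fold changes of -0.074, -0.14, -0.18 and -0.11. Cyp2c39, a retinoic acid hydroxylase in mice, was at 0.904 ± 0.0611 RPKM with Cre-miR122 and 0.858 ± 0.0932 RPKM with Cre (SD, n = 3 each). Cyp2c38 had 1 to 5 counts a library, Cyp2c65 at most 2, and Cyp2c66 had 0 in all 6.

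In the Cyp2d subfamily, 3 of 7 tested members lay above 0 and 4 below, with a median of -0.010. Cyp2d26, the second most abundant member, stood at 572, 519 and 564 RPKM with Cre-miR122, against 519, 575 and 628 RPKM with Cre, a fold of 0.961 (95% interval 0.820 to 1.13). Cyp2d22 varied least of the tested members, with a ratio of highest to lowest library of 1.13. It stood at 72.8, 64.5 and 66.9 RPKM with Cre-miR122, against 70.5, 64.4 and 72.1 RPKM with Cre. Cyp2d10 averaged 257 ± 7.82 RPKM with Cre-miR122 and 259 ± 31.5 RPKM with Cre (SD, n = 3 each). Cyp2d9, a male-specific testosterone hydroxylase in adult mice, stood at 61.5, 57.0 and 49.4 RPKM with Cre-miR122, against 47.7, 46.4 and 65.1 RPKM with Cre. Its highest library was Cre replicate 12, and the library with Ddx3y counts, Cre replicate 10, was the second lowest.

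Cyp2d13 is annotated in RefSeq as a transcribed pseudogene although its name has no such suffix. It stood at 85.02, 68.2 and 66.9 RPKM with Cre-miR122, against 73.9, 100 and 79.7 RPKM with Cre, with a log2 fold change of -0.21 (SE 0.13, edgeR adjusted p = 0.816). By the counts of this row it ranked 11 in the family per length. Its sharing of sequence with other copies was not measured, because GENCODE M21 held 0 transcripts under its name. Cyp2d11 had the largest positive estimate, 0.56 (SE 0.42, edgeR adjusted p = 0.821), from 26, 15 and 12 counts with Cre-miR122 against 16, 14 and 6 with Cre. It was 0.161 without Cre-miR122 replicate 1 and 0.838 without Cre replicate 10. It shares 94.7% of coding bases with Cyp2d10, which had 7561 to 9561 counts, and 60 of its exonic bases lie under Mir7684 on the same strand. Cyp2d40 stood at 14.4, 13.7 and 15.6 RPKM with Cre-miR122, against 7.91, 19.3 and 15.6 RPKM with Cre, with replicate 10 lowest. Cyp2d12 had at most 4 counts and Cyp2d34 had 0 in all 6.

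The Cyp2j genes, epoxygenases of fatty acids, had 3 tested members of 7. Cyp2j5 stood at 47.7, 51.1 and 51.5 RPKM with Cre-miR122, against 43.7, 42.6 and 55.8 RPKM with Cre. The Cre livers took both ends of the range, and the log2 fold change was 0.081 (SE 0.11). Cyp2j6 averaged 5.80 ± 0.338 RPKM with Cre-miR122 and 5.99 ± 0.355 RPKM with Cre (SD, n = 3 each). Cyp2j9 stood at 5.55, 3.13 and 2.21 RPKM with Cre-miR122, against 2.83, 5.54 and 4.47 RPKM with Cre, a log2 fold change of -0.24 (SE 0.33). Cyp2j8 had at most 2 counts, and Cyp2j11, Cyp2j12 and Cyp2j13 had 0 in all 6.

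The members of the Cyp2g, Cyp2r, Cyp2s, Cyp2t, Cyp2u and Cyp2w subfamilies were low in liver. Cyp2r1, which carries out the first activation step of vitamin D, stood at 0.612, 1.13 and 1.13 RPKM with Cre-miR122, against 0.734, 1.03 and 0.926 RPKM with Cre. Cyp2u1, a hydroxylase of long-chain fatty acids, stood at 0.513, 0.537 and 0.677 RPKM with Cre-miR122, against 0.897, 0.479 and 0.432 RPKM with Cre. Cyp2g1, known from olfactory mucosa, stood at 0.754, 0.418 and 0.836 RPKM with Cre-miR122, against 1.12, 0.755 and 0.837 RPKM with Cre. The groups overlapped for all of these. The log2 fold changes were 0.098 (SE 0.24), -0.063 (SE 0.31) and -0.43 (SE 0.29), with an edgeR adjusted p of 0.819 for Cyp2g1. Cyp2s1 had 5 to 16 counts and Cyp2t4 had 3 to 10, too few to be tested, and Cyp2w1 had 0 in all 6. For a gene at 0 these libraries allow a level of up to 0.140 to 0.150 CPM, the worth of 3 counts in each, for counting error only.

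Cre replicate 12 was the highest of the 6 libraries for 17 of 34 members (50%), against 13.2% of all genes tested. Cre replicate 10 was the lowest for 13 members (38.2%), against 15.8% of all genes. Erythroid markers, 0 of 7 called, summed to 354.4, 492.6 and 455.6 CPM in the Cre-miR122 libraries, against 213.3, 398.1 and 591.9 CPM in the Cre libraries, also lowest in Cre replicate 10 and highest in Cre replicate 12. Their part in the Cyp2 values was not tested. Relative to the mean of the other 5 on the log2 scale, Cre replicate 10 stood at -1.20 for Cyp2c50, -0.98 for Cyp2d40, -0.67 for Cyp2a5, -0.67 for Cyp2b13, -0.61 for Cyp2c55, -0.56 for Cyp2c37 and -0.39 for Cyp2e1. It stood at 0.78 for Cyp2u1, 0.74 for Cyp2a4, 0.69 for Cyp2g1 and 0.56 for Cyp2c40. Left out, it turned the direction of the log2 fold change for 10 members, with Cyp2d40 at -0.263, Cyp2c67 at 0.0451, Cyp2c40 at 0.0196, Cyp2c54 at -0.0966, Cyp2c50 at -0.235, Cyp2c44 at 0.009, Cyp2u1 at 0.335, Cyp2b10 at 0.115, Cyp2a12 at -0.0432 and Cyp2r1 at -0.0252. Without it Cyp2e1 was at -0.142, Cyp2c37 at -0.226 and Cyp2a5 at -0.311, and none of these was called by edgeR. Being 1 library, it allows no test of its sex, and sex and other features of that liver cannot be told apart.

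Genes known to be sex-biased in adult mouse liver did not follow one order in that library. Of the list of female-biased genes, Cyp2a4, Cyp2b10, Cyp2c40, Cyp2c69 and Cyp2c39 were higher in Cre replicate 10 than the mean of the other 5, while Cyp2b9 and Cyp2b13 were lower. Of the male-biased list, Cyp2u1 was higher, and Cyp2d9, Cyp2j5 and Cyp2d40 were lower. The summed level of the female-biased list was 220, 208 and 222 RPKM with Cre-miR122, against 224, 203 and 269 RPKM with Cre. That of the male-biased list was 124, 122 and 117 RPKM with Cre-miR122, against 100, 109 and 137 RPKM with Cre. The ages of the mice are not given, so whether adult dimorphism applies here was not tested.

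**Figure D4:**
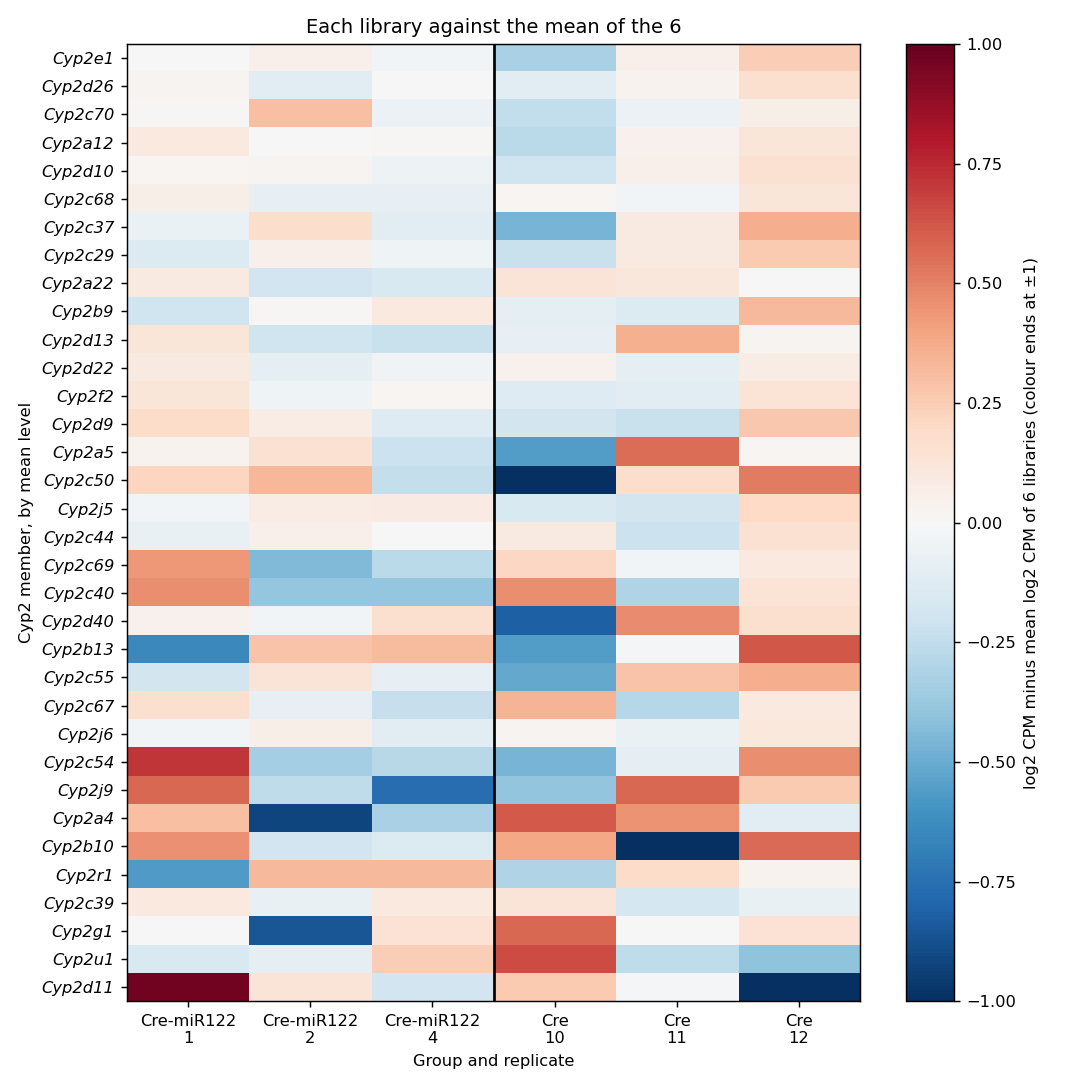
Log2 CPM of each tested member (rows, by mean level) in each library (columns, Cre-miR122 replicates left of the line and Cre replicates right of it) minus the mean of the 6 libraries. Red is higher and blue lower, with Cre replicate 10 lowest for 13 of 34 members and Cre replicate 12 highest for 17.

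Genes that control Cyp2 transcription were also measured. Of 25 regulators, all tested, 0 passed the test over all genes in either direction, 16 lay above 0 and 9 below, and the median log2 fold change was 0.041. Named for their role after their values were seen, the receptor genes Nr1i3 (CAR) and Nr1i2 (PXR) were at -0.0013 (SE 0.17) and 0.022 (SE 0.15), and Hnf4a was at 0.12 (SE 0.12). The C/EBP genes Cebpa and Cebpb, named likewise, were at -0.15 (SE 0.080) and 0.15 (SE 0.31). Cebpa stood at 250, 276 and 264 CPM with Cre-miR122, against 286, 305 and 286 CPM with Cre. Bcl6, a repressor tied to sex differences in liver, stood at 17.8, 17.3 and 21.2 CPM with Cre-miR122, against 23.5, 21.8 and 22.4 CPM with Cre. The groups did not overlap for Bcl6, as for 5.45% of all genes tested in that direction, with a log2 fold change of -0.26 (SE 0.099, edgeR adjusted p = 0.816). Hlf, a clock-driven factor, was at 0.26 (SE 0.11) and Rxra, the partner of CAR and PXR, at 0.20 (SE 0.095), with the same adjusted p of 0.816. Of the 25 regulators, 2 were lower without overlap, Bcl6 and Cebpa, beside 5.45% of all genes tested. The 1 higher without overlap was Rxra, beside 5.69% of all genes tested.

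Among 16 genes that supply electrons or heme, 0 passed the test in either direction, 5 lay above 0 and 11 below, and the median was -0.044. Alas1, the rate-limiting enzyme of heme synthesis, stood at 392, 180 and 255 CPM with Cre-miR122, against 328, 525 and 300 CPM with Cre. The groups overlapped, with a log2 fold change of -0.48 (SE 0.28, edgeR adjusted p = 0.816). It was -0.822 without Cre-miR122 replicate 1 and -0.189 without Cre replicate 11. The later heme enzymes Alad and Ppox were each lower in every Cre-miR122 library than in any Cre library, at -0.23 (SE 0.10) and -0.19 (SE 0.080), again with an edgeR adjusted p of 0.816. Blvra, a biliverdin reductase gene, also did not overlap, at -0.047 (SE 0.085), and 5.45% of all genes tested were lower without overlap. The reductase gene Por stood at 752, 401 and 525 CPM with Cre-miR122, against 490, 415 and 558 CPM with Cre, a log2 fold change of 0.20 (SE 0.21).

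Other liver gene lists overlap with the family. Of 16 CAR target genes, 7 of which are Cyp2 members, 0 passed the test, 6 lay above 0 and 10 below, with a median of -0.033. Their smallest p belonged to Abcc2, an exporter of conjugated bilirubin, at 274, 241 and 244 CPM with Cre-miR122, against 205, 182 and 226 CPM with Cre (log2 fold change 0.31, SE 0.10, edgeR adjusted p = 0.816). Of 13 pericentral genes 10 lay above 0, with a median of 0.066, and of 11 periportal genes 8 lay above 0, with a median of 0.078, and 0 of either list passed the test. By smallest p, the pericentral genes were Gstm3 at 0.29 (SE 0.20), Axin2 at 0.25 (SE 0.23) and Glul, glutamine synthetase, at 0.16 (SE 0.19). Without Cre replicate 10 they were at 0.0671, 0.013 and -0.0564. The periportal genes were Cps1 and Ass1 of the urea cycle at 0.37 (SE 0.18) and 0.24 (SE 0.16), and the arginase gene Arg1 at 0.16 (SE 0.17), which was at -0.045 without Cre-miR122 replicate 1. Without Cre replicate 11, Cps1 was at 0.166 and Ass1 at 0.0741.

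**Figure D5:**
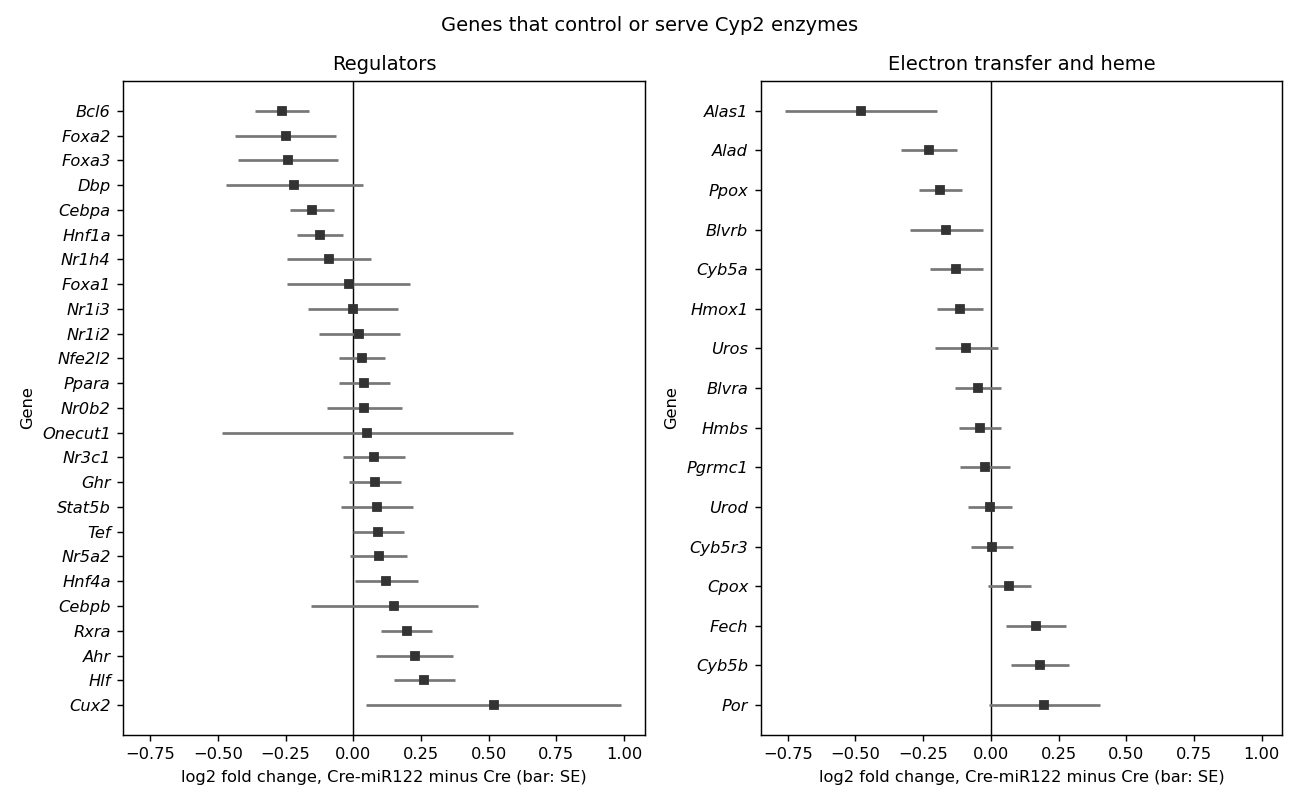
Log2 fold change (Cre-miR122 minus Cre) of 25 regulators of Cyp2 genes (left) and of 16 genes of electron transfer and heme supply (right), with bars for the standard error. Nr1i3 lies at -0.0013, Bcl6 at -0.26 and Alas1 at -0.48, and 0 genes passed the edgeR test over all genes.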

How the data were processed

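Liver messenger RNA libraries, 3 per vector, were compared. The authors deposited whole-number read counts per gene with exon length in bases. The submitters' processing notes name STAR 2.7.9a, featureCounts 2.0.1 and the builds GRCm38 and mm10. The labels state neither the strand setting nor how reads with several matches were counted. A further 5 per-sample columns matched no label and were not used. Counts were tested with edgeR 4.0.16 (R 4.3.3): TMM scaling, filterByExpr, quasi-likelihood test with group as the only term, Benjamini-Hochberg adjusted p under 0.05. RPKM was the TMM-scaled CPM per kilobase of deposited length. Standard errors are the log2 fold change over the square root of F. DESeq2 1.42.0 and limma-voom 3.58.1 were alternatives, as were other scalings, filters and each library left out. The steps were tested on simulated data. Promoters are RefSeq sequences, and coding identity used GENCODE M21 transcripts. Intervals at 0 cover counting error only, since reads are not independent molecules.

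Members, gene lists and alternatives were chosen with earlier results of these data known. Genes given in every library are the 4 with the smallest p in each direction, the most abundant of each subfamily and those with a known role. Each other list gives counts, its median and at most 3 genes of smallest p. Named outside that rule, with their values known, were Nr1i3, Nr1i2, Hnf4a, Cebpa, Cebpb, Blvra and Por. The members Cyp2d40 and Cyp2j9 were likewise given in every library outside that rule.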

Additional observations from a re-analysis of the deposited data

How the results depend on the processing

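No paired analysis was possible because the groups share no replicate numbers (1, 2 and 4 with Cre-miR122, and 10, 11 and 12 with Cre). Cyp2 members called numbered 0 under every setting run. Over all genes, 2 were called with no filter on low counts and 3 with DESeq2, against 0 with edgeR as reported. At an unadjusted p under 0.05 there was 1 of 41 members with no filter, beside 5.01% of all genes tested. DESeq2 gave 1 of 34, beside 3.62%, and the member was Cyp2a4 in both. When a library was left out there were 0 to 6 members, beside 2.9% to 10.5% of all genes tested. The 6 of 34, without Cre-miR122 replicate 1, were Cyp2d13, Cyp2c40, Cyp2c69, Cyp2j9, Cyp2a4 and Cyp2a22, all lower (edgeR adjusted p = 0.628). In that setting 7.79% of all genes tested were at this level, in either direction. The 3 of 35 without Cre replicate 12, beside 10.5% of all genes tested, were Cyp2d9 and Cyp2j5, higher, and Cyp2a4, lower. The 1 of 35 without Cre replicate 10, beside 5.64%, was Cyp2c55, lower. The median log2 fold change of members ran from -0.0966 to 0.0469, and the log2 ratio of summed level from -0.116 to 0.0972. Of 34 members, 23 changed sign with a library left out, Cyp2j9 and Cyp2c40 among them, and the cause was not tested. Cyp2e1 was at 0.000685 with RLE scaling and with DESeq2, 0.00493 with no filter and 0.0179 with limma-voom. Cyp2d40 was at -0.00442 with no scaling. With limma-voom Cyp2c37 was at 0.00453, Cyp2u1 at 0.00494 and Cyp2b10 at 0.0966. With a library left out, log2 fold changes that changed sign ran as follows. Cyp2d22 ran from -0.0707 to 0.0165, Cyp2d10 ran from -0.104 to 0.0668, Cyp2d9 ran from -0.012 to 0.251, Cyp2d40 ran from -0.263 to 0.307. Cyp2d26 ran from -0.125 to 0.013, Cyp2c55 ran from -0.364 to 0.0156, Cyp2c29 ran from -0.22 to 0.0148, Cyp2c67 ran from -0.265 to 0.0451. Cyp2c40 ran from -0.518 to 0.0196, Cyp2c69 ran from -0.444 to 0.0279, Cyp2c37 ran from -0.226 to 0.168, Cyp2c54 ran from -0.328 to 0.38. Cyp2c50 ran from -0.235 to 0.416, Cyp2c44 ran from -0.131 to 0.0469, Cyp2u1 ran from -0.248 to 0.335, Cyp2j9 ran from -0.682 to 0.0168. Cyp2b10 ran from -0.41 to 0.248, Cyp2b13 ran from -0.282 to 0.316, Cyp2b9 ran from -0.152 to 0.0962, Cyp2a5 ran from -0.311 to 0.24. Cyp2a12 ran from -0.0432 to 0.144, Cyp2r1 ran from -0.0377 to 0.336, Cyp2e1 ran from -0.142 to 0.134, Glul ran from -0.0564 to 0.362. Arg1 ran from -0.045 to 0.267. Of member values, 159 kept direction and call and 45 changed sign when a library was left out, and 229 and 8 did so under other settings. Without a change of sign, Cyp2a4 ran from -0.941 to -0.331, Cyp2g1 from -0.626 to -0.184, Cyp2d13 from -0.325 to -0.0672, Cyp2d11 from 0.161 to 0.838 and Cyp2c70 from 0.0536 to 0.242. With 3 libraries a group, the median standard error of a member was 0.175 on the log2 scale, and the 95% intervals printed with the members limit what could be seen.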

Other observations

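The row Cyp2d37-ps, a pseudogene outside the naming rule of the family, was more abundant per length than most tested members. It averaged 129.8 ± 9.81 RPKM in Cre-miR122 livers and 135.1 ± 5.31 RPKM in Cre livers (SD, n = 3 each). Its log2 fold change was -0.058 (SE 0.083, edgeR adjusted p = 0.896). The row Cyp2ab1 had at most 4 counts in a library, and Cyp2c53-ps had 0 in all 6.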
